A study of Mus musculus with 8 samples.

Results

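At day 6 of embryoid body culture, RNA from mouse cells with an induced Oct6 transgene was set beside RNA from control cells of the same day. Each gene is described by the difference of log2(FPKM + 1), induced minus control, where FPKM is the deposited fragment number scaled to transcript length and to library size. Genes entered when their FPKM was at least 1 in either of the 2 day 6 libraries, which held for 12820 of the 22558 genes of the table. A gene is called at least 2-fold higher or lower when the difference reached 1 or -1. With 1 library per arm there is no replicate check, so all values below describe these libraries and no test was made.

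Oct6 is the protein of Pou3f1, a class III POU domain transcription factor that binds DNA through a POU-specific domain and a homeodomain. It is known from the epiblast, from neural progenitors and from Schwann cells. Embryoid bodies are floating aggregates of embryonic stem cells in which derivatives of all germ layers form side by side. The level of a transcript therefore depends on which cells are present. Fewer cells of a type and less of a transcript per cell cannot be told apart in such bulk RNA.

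The starting cells were mouse embryonic stem cells, lines R1 and R1/E, and RNA was sequenced at days 2, 4 and 6 in a control arm and an arm with inducible Oct6, with 1 library per arm and day. The control day 6 library is labelled as control, and the induced day 6 library as overexpressing Oct6 under doxycycline (Dox), an antibiotic that switches on the transgene. The titles name Dox for the induced arm only, and the labels do not say which line served which arm or whether each is 1 clone. An effect of Dox or of a line and an effect of Oct6 cannot be told apart. The labels give stem cells kept on feeders followed by a serum-free neural protocol, while the library titles carry an unexplained prefix, fbs, so the medium is not known here. A list of Oct6-bound sites from a day 4 ChIP of overexpressing cells completes the data used.

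From the steps that single fragments leave in low values, depth at day 6 was estimated at 27300000 fragments in the control and 24100000 in the induced library, within the 24100000 to 52300000 of all 6 RNA libraries. An FPKM of 1 in a gene of 2 kb then stands for about 54.6 fragments in the control and 48.2 in the induced library. Most genes lay close to the diagonal: 83.8% differed by less than 0.5 on the log2 scale, and the median difference was 0.06. Of the 12820 genes, 432 were at least 2-fold higher in the induced library (3.37%) and 269 at least 2-fold lower (2.10%). At 4-fold the numbers were 69 higher (0.538%) and 56 lower (0.437%). Higher genes made up 61.6% of the genes past 2-fold, and 51.4% after quantile normalisation, which gave 329 higher and 311 lower. Symbols of small RNAs, predicted genes and pseudogenes supplied 65 of the higher and 48 of the lower genes, against 378 of all 12820. Their FPKM values are uncertain because a fragment can map to near-identical copies.

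**Figure D1:**
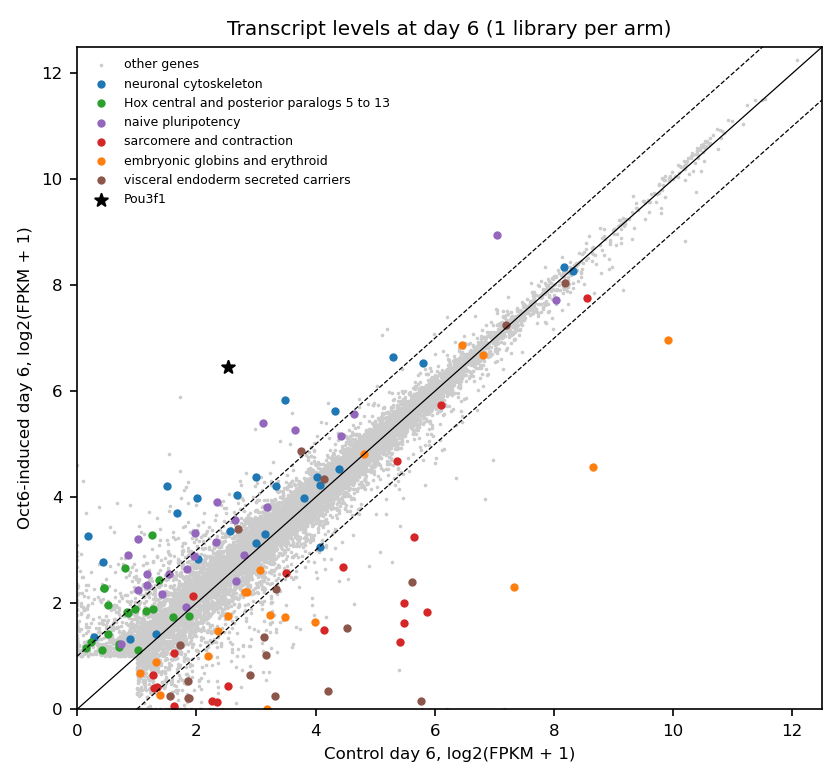
Each point is a gene of the 12820 compared, plotted by log2(FPKM + 1) in the control library (horizontal) and in the induced library (vertical), with the line of equality and dashed lines at a 2-fold difference. Pou3f1 (star), the neuronal cytoskeleton and naive pluripotency members spread above the line, and the sarcomere, globin and secreted carrier members below it.

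Both sets of genes were mostly weak transcripts in 1 of the arms. The 432 higher genes had a median FPKM of 0.858 in the control and 4.51 in the induced day 6 library. Their median at day 4 had been 0.827 and 4.67, a gap of the same order. The 269 lower genes had a median FPKM of 5.87 in the control and 1.25 in the induced day 6 library, against 0.979 and 0.605 at day 4. Without small RNA and predicted symbols, 28 genes had under 1 FPKM in the control and 5 or more in the induced library, and 14 genes showed the opposite. The lists of genes below give, for each group, how many members the table holds and how many reached the FPKM minimum. A weak gene enters only through the library where it is high, so the counts and medians over the entered members are descriptions, to be read against the 3.37%, the 2.10% and the median of 0.06 over all genes.

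Pou3f1 itself, on chromosome 4 (124334889 to 124337899, plus strand, mm9), had 4.76 FPKM in the control and 86.8 FPKM in the induced library, a log2 difference of 3.93. Its induced levels at days 2 and 4 had been 312 and 222 FPKM, and its control levels 64.3 and 10.1 FPKM. The day 6 induced library thus held the lowest of the 3 induced levels and still lay above the control of every day. The table has 1 value for the gene and does not separate transgene from endogenous transcripts. Of 10 listed POU factors, Pou3f1 among them, 6 entered. Of these, 5 were at least 2-fold higher (4 after either other scaling) and none lower. The 4 that did not enter stayed under 1 FPKM in both day 6 libraries. Pou3f3 had 0.367 FPKM in the control and 5.84 in the induced library, and Pou3f4 had 0.555 and 5.0 FPKM. Pou6f1 had 1.26 and 5.80 FPKM, and Pou2f2 0.180 and 1.43 FPKM, a difference of 1.04 that was 0.99 after median ratio scaling. The ubiquitous Pou2f1 stood at 9.24 and 9.38 FPKM.

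The deposited Oct6 sites of day 4 were set beside the day 6 differences. Within 10 kb of an annotated start, 93 of 413 matched higher genes had a peak centre, which is 22.5% (95% Wilson interval 18.8 to 26.8%). Among matched lower genes it was 21 of 255, or 8.24% (5.45 to 12.3%), and among genes in neither class 2199 of 11936, or 18.4% (17.74 to 19.13%). The lower genes held the smallest share at 1 kb (1.57%) and at 50 kb (25.1%) as well. The higher genes were below the genes in neither class at 1 kb, with 10.2% against 11.8%, and above them at 50 kb, with 48.2% against 39.5%. The intervals of these classes overlapped at 1 kb and 10 kb and did not at 50 kb. With peaks of the upper scores alone (at or above the median) they overlapped at 50 kb too, with 30.02% (25.8 to 34.6%) for higher and 25.5% (24.8 to 26.3%) for neither, against 16.1% for lower. The intervals cover counting error only and treat each gene as separate, although the 93 higher genes had 86 nearest peaks between them. Gene length moves with these classes: the median span of protein-coding genes was 32.1 kb for higher, 17.4 kb for lower and 23.6 kb for all entered genes, and its part in the shares was not tested.

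**Figure D2:**
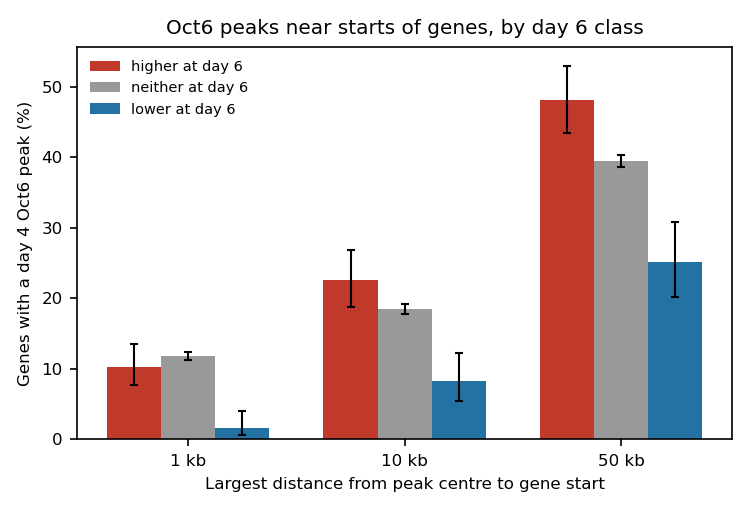
Bars give the percentage of genes with a day 4 Oct6 peak centre within 1, 10 or 50 kb of the start, for genes higher, in neither class or lower at day 6, with 95% Wilson intervals that cover counting error only. The lower genes have the shortest bar at each distance, and the order of higher and neither differs between 1 kb and 50 kb.

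The sites near genes past 2-fold are shown with their letters because the classical target of POU proteins is the octamer ATGCAAAT, and POU dimers are known on palindromic elements. The palindrome ATGCAT, searched here as letters and picked after the 6-letter words of peaks and flanks had been compared, was in 19.5% of all 7965 placed peaks and in 4.96% of 15930 flanking windows of the same 133 bases. The octamer, on either strand, was in 4.19% of peaks and 1.07% of flanks. Peaks within 10 kb of higher genes held the palindrome in 5 of 86 (5.81%), those of lower genes in 5 of 20 (25%) and those of genes in neither class in 5.21%. The octamer was in 1 of 86 (1.16%, 0.206 to 6.30%), 2 of 20 (10%, 2.79 to 30.1%) and 1.66% (1.17 to 2.37%) of the same classes. Peaks within 1 kb of starts of entered genes held the palindrome in 2.15% and the octamer in 0.843%. Distance to the start differs between the classes, and its part in these motif shares was not tested. A match is a description of the sequence and not a proof of contact, and the absence of these letters says nothing of the factor.

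The Pou3f1 promoter itself held a peak, centred 0.434 kb before the start, with neither motif. The others shown are among the nearest peaks to genes of the named set that hold the palindrome. All 5 are given 5′ to 3′ on the plus strand of mm9, with ATGCAT in capitals.
Pou3f1, chr4:124334389-124334521, no match: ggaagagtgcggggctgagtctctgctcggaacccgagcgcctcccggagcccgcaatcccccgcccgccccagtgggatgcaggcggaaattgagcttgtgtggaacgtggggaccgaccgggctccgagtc
Zic1, chr9:91250607-91250739, 9.97 kb past the start and beyond the gene's end: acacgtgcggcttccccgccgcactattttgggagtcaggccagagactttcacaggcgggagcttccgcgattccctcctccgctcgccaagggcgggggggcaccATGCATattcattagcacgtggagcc
Tcfap2b, chr1:19196548-19196680, 2.38 kb before the start: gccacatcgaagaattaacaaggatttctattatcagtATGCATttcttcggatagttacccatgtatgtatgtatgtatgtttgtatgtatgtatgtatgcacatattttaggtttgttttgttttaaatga
Ncan, chr8:72642749-72642881, in an intron of Ncan: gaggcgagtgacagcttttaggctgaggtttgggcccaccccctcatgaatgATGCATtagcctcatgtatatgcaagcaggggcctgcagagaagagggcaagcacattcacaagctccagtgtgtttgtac
Postn, chr3:54161554-54161686, 3.41 kb before the start: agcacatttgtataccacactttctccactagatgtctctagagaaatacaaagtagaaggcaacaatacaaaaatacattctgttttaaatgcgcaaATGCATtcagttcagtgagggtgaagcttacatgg
Zic1, Tcfap2b and Ncan were higher in the induced library at day 6, and Postn was lower.

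Neurons begin with a cytoskeleton of neuron-specific tubulins and microtubule-binding proteins. Of 27 listed members 26 entered, 11 were at least 2-fold higher and 1 lower, with a median difference of 0.80. Dcx, the doublecortin of migrating neurons, had 0.0438, 0.0494 and 0.132 FPKM in control cells at days 2, 4 and 6, and 0.719, 3.43 and 8.68 FPKM in induced cells. The 3 induced values were each above the 3 control values, and the day 6 log2 difference was 3.10. Tubb3, a beta tubulin of neurons, had 15.4, 2.92 and 10.3 FPKM in the control and 50.7, 28.6 and 56.2 FPKM in the induced arm, a day 6 difference of 2.34. Mtap2 (Map2), a dendritic microtubule protein, had 1.84 and 17.4 FPKM at day 6, a difference of 2.70. Stmn4, also of this list, had 0.348 and 5.86 FPKM, and the growth cone protein Gap43 had 7.02 and 19.9 FPKM. Tubb4 was the 1 lower member, with 15.9 and 7.37 FPKM.

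Factors that commit progenitors to neurons gave a median difference of 1.19 over the 22 of 44 members that entered. Of these, 14 were at least 2-fold higher (13 after median ratio scaling, 11 after quantile normalisation) and 1 lower. Their levels stayed low in FPKM. Nhlh1, a bHLH factor of new neurons, was listed at 0 in the control at days 2 and 4 and had 0.0168 FPKM at day 6, against 6.16, 1.49 and 3.55 FPKM in induced cells, and Nhlh2 had 0.0402 and 3.0 FPKM. Neurog1 had 0.0671 and 1.62 FPKM, and Neurog2 was listed at 0 in the control with 1.12 FPKM in the induced library. Insm1, a zinc finger factor of delaminating progenitors, and the Ebf factors showed another course. Insm1 had 59.7 FPKM in induced cells at day 2, 8.12 at day 4 and 5.69 at day 6, against 1.001, 0.0785 and 0.294 FPKM in the control, so the log2 difference was 2.37 at day 6 against 4.92 at day 2. Ebf1 had 19.4, 13.1 and 6.45 FPKM in induced cells. The lower member was Isl1, a LIM homeodomain factor of motor neurons and also of heart progenitors, with 16.7 and 6.12 FPKM.

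Long non-coding transcripts of the nervous system were among the largest differences. The table's 2610017I09Rik (Pantr1), which lies beside the gene of another POU factor in the genome, had 0.0740 FPKM in the control and 18.8 FPKM in the induced day 6 library, a difference of 4.21. Miat had 4.54, 0.633 and 1.91 FPKM in the control by day and 2.82, 6.58 and 27.3 FPKM in induced cells. At day 2 the induced value was the lower one, and at day 6 the log2 difference was 3.28. The microRNA host 2610203C20Rik (Mir100hg) had 0.285 and 13.1 FPKM, and A930011O12Rik, the host of Mir124a-1, had 0.0422 and 6.62 FPKM. Of 16 hosts and neural non-coding transcripts, 12 entered, 5 were at least 2-fold higher and none lower, with a median of 0.45. The day 6 control values of these leading genes were all under 2 FPKM.

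Proteins of later neuronal function were weaker but on the same side. Of 38 synaptic vesicle and release genes 27 entered, with 8 higher (4 after quantile normalisation), none lower and a median of 0.81. Scg2, a granin of dense-core vesicles, had 0.0134 FPKM in the control and 4.02 in the induced library, and Scg3 had 0.213 and 3.23 FPKM. The calcium sensor Syt1 had 0.282 and 1.74 FPKM. Its difference of 1.10 was 0.91 after quantile normalisation. Neuronal RNA-binding proteins had 6 of 18 entered members higher (4 after quantile normalisation), none lower and a median of 0.42. Elavl3 had 0.329 and 4.17 FPKM and Nova1, a splicing factor, 1.86 and 7.63 FPKM, while Ptbp1, which represses neuronal exons, stood at 225 and 186 FPKM. Among neurotransmitter genes 4 of 14 entered members were higher and none lower, but 3 were higher after median ratio scaling and 1 after quantile normalisation. Gria2, a glutamate receptor subunit, had 0.575 and 2.90 FPKM. Among ion channels 3 of 12 were higher and none lower, led by the sodium channel Scn3a with 0.0778 and 2.69 FPKM.

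Adhesion and guidance genes were split. Neural immunoglobulin and synaptic adhesion genes had 9 of 26 entered members higher (5 after quantile normalisation), none lower and a median of 0.58. Lrrn1 had 2.53 and 17.2 FPKM, Cntn2, an axonal contactin, 0.466 and 5.52 FPKM, and Ncam1 2.25 and 5.74 FPKM. Axon guidance genes had 6 of 46 higher and 1 lower, but a median of 0.03, which lay on the other side of 0 after both other scalings. The ephrin receptor Epha3 had 0.107 and 3.76 FPKM and the netrin receptor Dcc 0.0164 and 1.79 FPKM. Plxnd1, a semaphorin receptor known from blood vessels, was the lower one with 11.8 and 4.65 FPKM. Among cadherins 5 of 24 were higher and 1 lower (2 after either other scaling), with Cdh8 at 0.294 and 2.35 FPKM and the endothelial Cdh5 on the lower side.

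Neural progenitor genes were uneven. Of 36 members 32 entered, 6 were at least 2-fold higher, none lower, and the median was 0.30. Fabp7, the fatty acid binding protein of radial glia, stood far from the rest of this list. It had 0.418, 2.03 and 2.31 FPKM in control cells by day and 4.21, 16.6 and 58.2 FPKM in induced cells, a day 6 difference of 4.16. Zic1, whose downstream site is printed above, had 1.11 and 9.13 FPKM, and the dorsal neural tube factor Pax3 had 0.854 and 6.32 FPKM. The growth factor Ptn had 9.59 and 32.2 FPKM, and the Notch effector Hes5 1.16 and 5.59 FPKM. The general progenitor genes stood closer together. Sox1 had 1.64 and 2.31 FPKM, Sox2 had 32.8 and 37.8 FPKM, and Nes, an intermediate filament of progenitors, had 8.5 and 11.0 FPKM. Pax6, with 1.90 and 4.69 FPKM, reached a difference of 0.97. At day 4 the control levels of Sox1 and Pax6 had been 0.0307 and 0.138 FPKM, so both control levels were higher at day 6 than at day 4. Glial genes were mostly weak, with 10 of 22 entered, 2 higher and 1 lower. The higher ones, Nfib (1.03) and Slc1a2 (1.01), lay under 2-fold after median ratio scaling (0.98 and 0.96) and quantile normalisation (0.87 and 0.84).

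The Notch pathway, in which Delta ligands on 1 cell activate receptors on the next, had 4 of 27 entered members higher and 1 lower, with a median of 0.15. The ligand Dll1 had 2.29 and 5.95 FPKM, a difference of 1.08 that was 0.97 after quantile normalisation. Dner, a neural ligand, had 0.365 and 2.22 FPKM, and Dtx4 1.88 and 6.94 FPKM. The endothelial ligand Dll4 was the lower member, with 2.24 and 0.442 FPKM. A LIM-only cofactor pair known from the nervous system, Lmo1 and Lmo3, had 1.90 and 12.4 FPKM and 0.216 and 3.82 FPKM. They were the 2 higher of 13 LIM-only and LIM partner genes, all entered, of which 2 were lower, Isl1 and Ldb2 (2.53 and 0.383 FPKM), and the median was -0.28.

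**Figure D3:**
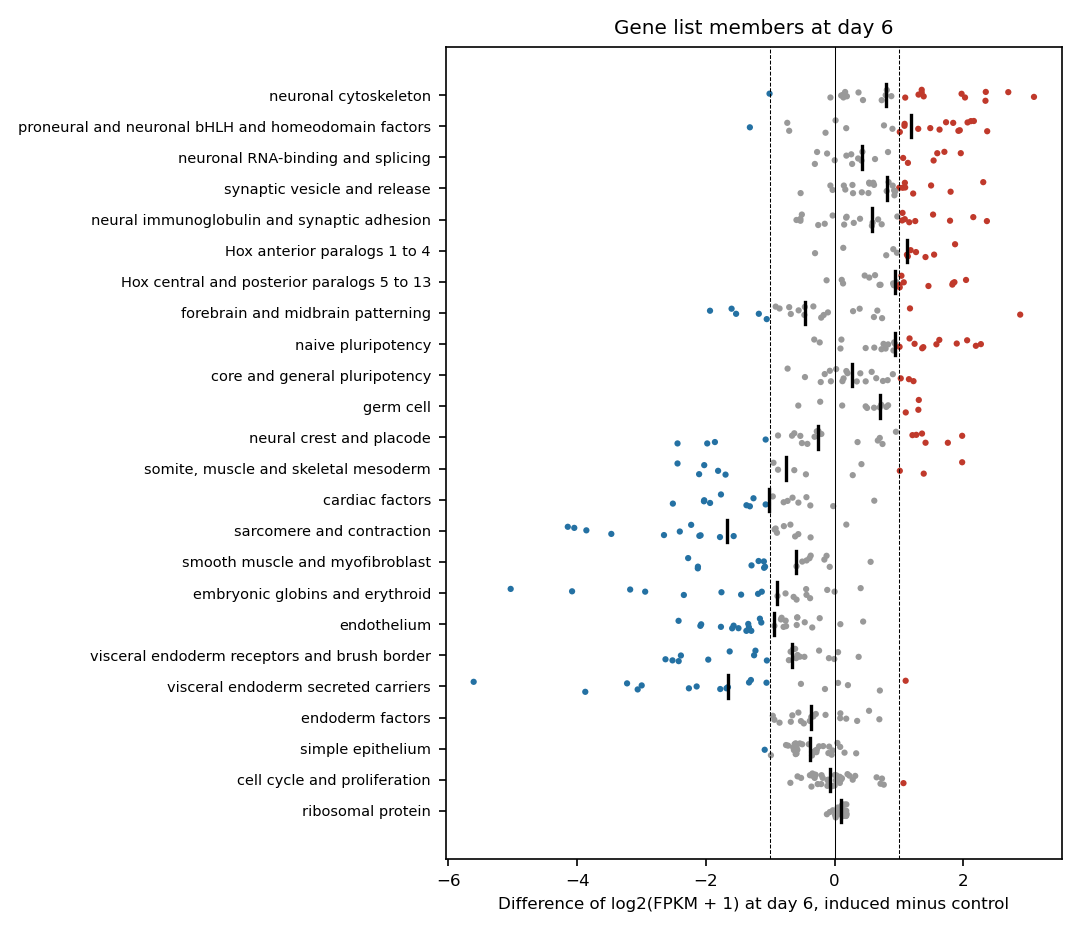
Each dot is a list member that passed the FPKM minimum at day 6, placed by its difference of log2(FPKM + 1), induced minus control; red and blue mark differences of at least 1 in size, and the black bar is the median. Neuronal, Hox and naive pluripotency lists lie to the right and heart, globin, endothelium and carrier lists to the left, while cell cycle and ribosomal protein members lie around 0.

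At day 6, position along the head-to-tail axis divided the patterning factors. Genes of the forebrain and midbrain had 5 of 23 entered members lower and 2 higher. Their median was -0.46, after 0.62 at day 2 and 0.56 at day 4. Six3, a factor of the anterior forebrain and eye, had 0.0497, 0.141 and 2.90 FPKM in control cells by day, and 0.252, 0.215 and 0.284 FPKM in induced cells. Of the 6 libraries the control of day 6 alone exceeded 1 FPKM, and the day 6 difference was -1.60. The anterior factor Hesx1, with 4.11 and 1.26 FPKM, was on the same side, as were Otx1 and Dmbx1. Otx2, a factor of epiblast and anterior brain, had 56.0 and 30.5 FPKM, a difference of -0.86. The exception was the midbrain-hindbrain boundary. En2 on chromosome 5 (28492236 to 28500152) had 1.64, 0.193 and 0.463 FPKM in the control and 2.42, 6.82 and 9.79 FPKM in the induced arm, a difference of 2.88. Its neighbour Cnpy1 (28527359 to 28572332), a modulator of FGF signalling at that boundary, had 0.839 and 13.4 FPKM. Irx2 had 3.23 and 8.52 FPKM.

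Hindbrain and spinal cord factors lay the other way at day 6, with 7 of 22 entered members higher (6 after quantile normalisation) and 2 lower. Their median was 0.77, after 0.75 at day 2 and 0.76 at day 4. Hoxb1, Hoxb2 and Hoxb3 are among the higher members and are counted again with the Hox genes below. Msx1, also higher, is counted again with the neural crest list, so these lists are not separate observations. Both lower ones belong to the ventral midline. Shh, the ventral signal, had 5.39 and 1.002 FPKM, and Nkx2-9 had 2.24 and 0.119 FPKM. The Hox genes, which give the hindbrain and trunk their segment identity, had no entered member at least 2-fold lower. All 12 of paralogs 1 to 4 entered, with 7 higher (5 after quantile normalisation), none lower and a median of 1.13. Hoxb3 had 2.96 and 13.5 FPKM, Hoxb1 1.54 and 6.40 FPKM, and Hoxb4 1.63 and 6.01 FPKM. Of paralogs 5 to 13, 20 of 27 entered, with 9 higher, none lower and a median of 0.94. That count of 9 was 6 after median ratio scaling and 5 after quantile normalisation.

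The courses of the posterior genes differed among themselves. Hoxb9 had 0.461, 0.0539 and 0.367 FPKM in the control and 0.492, 0.520 and 3.85 FPKM in the induced arm, and its differences by day were 0.03, 0.53 and 1.83. Hoxa9 had differences of 0.04, 0.59 and 1.84. Hoxb8, in contrast, had reached 2.45 at day 4 and stood at 2.04 at day 6, with 1.39 and 8.82 FPKM. Hoxb6, of the same cluster, had 2.67 and 2.37 FPKM. Among neuromesodermal and presomitic genes 3 of 22 were higher, a number that was 2 after median ratio scaling and 1 after quantile normalisation. They were Dll1, a Notch ligand given above, Msgn1 with 0.118 and 2.69 FPKM, and Cdx1 with 0.171 and 1.42 FPKM. The difference of Cdx1, 1.05, was 0.996 and 0.89 under these scalings, while T, the brachyury factor, stood at 38.8 and 36.1 FPKM.

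**Figure D4:**
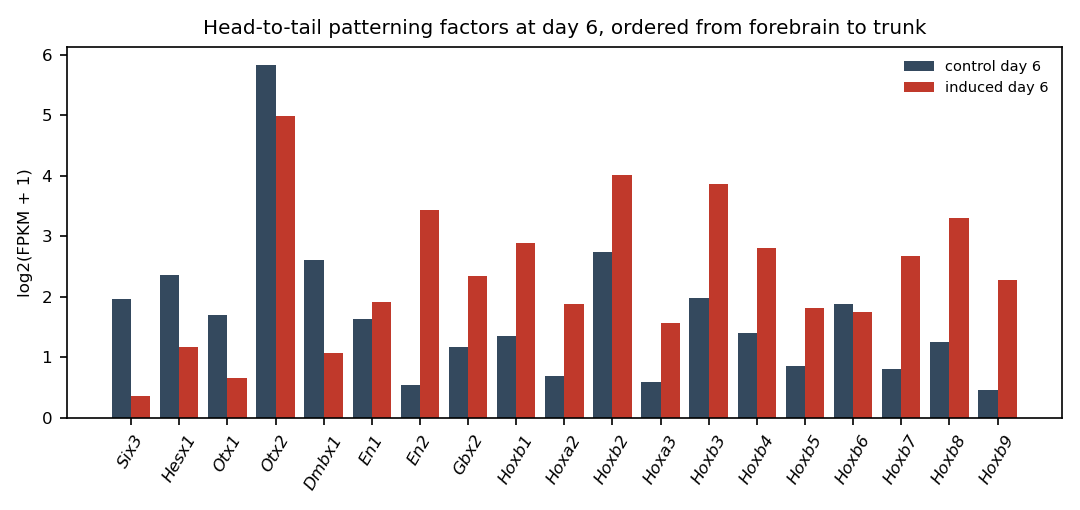
Bars give log2(FPKM + 1) of head-to-tail patterning factors in the control (dark) and induced (red) day 6 library, 1 library each, ordered from forebrain to trunk. The control bar is taller from Six3 to Dmbx1, and the induced bar is taller from En1 to Hoxb9 apart from Hoxb6.

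Retinoic acid, a signal that posteriorises the neural tube, had a mixed gene set, with 2 of 21 entered members higher, 3 lower and a median of -0.02. The cellular binding proteins Crabp1 and Crabp2 were abundant and higher: Crabp1 had 33.8 and 134 FPKM, and Crabp2 35.9 and 143 FPKM. The receptor Rarb, itself a known retinoic acid target, had 8.41 and 2.10 FPKM, and the degrading enzyme Cyp26a1 had 76.4 and 48.3 FPKM. The synthesising enzyme Aldh1a2 stood at 2.21 and 2.76 FPKM. In these libraries Rarb and Cyp26a1 lay on the opposite side from Crabp1 and Crabp2.

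Genes of the naive pluripotent state, that of stem cells before the epiblast is primed, lay on the higher side. All 24 entered, 11 were at least 2-fold higher, none lower, and the median was 0.93, after -0.06 at day 2 and 1.15 at day 4. Jam2, an adhesion molecule, had 10.2, 0.948 and 1.04 FPKM in control cells by day and 9.73, 6.81 and 8.31 FPKM in induced cells. The arms lay close at day 2, and at days 4 and 6 only the control values were low. Zfp42 (Rex1) had 104, 23.8 and 11.6 FPKM in the control and 106, 88.1 and 37.8 FPKM in induced cells, both lower at day 6 than at day 2. Esrrb had 26.5, 5.86 and 2.92 FPKM against 20.3, 16.97 and 9.05 FPKM. Dppa5a had 131 and 492 FPKM at day 6, Spp1 7.71 and 41.1 FPKM, and Nr0b1 0.80 and 6.5 FPKM. Klf2 and Klf4, also of this list, differed by 0.11 and 0.09 only, after 1.02 and 1.86 at day 4.

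General pluripotency genes were less separated. Pou5f1, the gene of Oct4, had 136 and 138 FPKM at day 6 after 890 and 436 FPKM at day 2, and Nanog had 20.6 and 34.7 FPKM. Of 23 such genes 22 entered and 3 were higher: Gdf3, Dppa4 and Lefty1. Gdf3, a TGF-beta family ligand, had 1.90 and 5.78 FPKM, and Lefty1, a Nodal antagonist, 6.06 and 13.4 FPKM. The difference of Lefty1, 1.03, was 0.97 after median ratio scaling and 0.996 after quantile normalisation. Germ cell genes had 3 of 13 entered members higher (2 after quantile normalisation) and a median of 0.70. Nanos3 had 0.557 and 2.85 FPKM and Tdrd12 2.82 and 8.41 FPKM. Primed epiblast genes had a median of -0.14. Apart from Pou3f1 none of the 18 was higher, and Car4 was lower, with 103 and 49.4 FPKM.

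**Figure D5:**
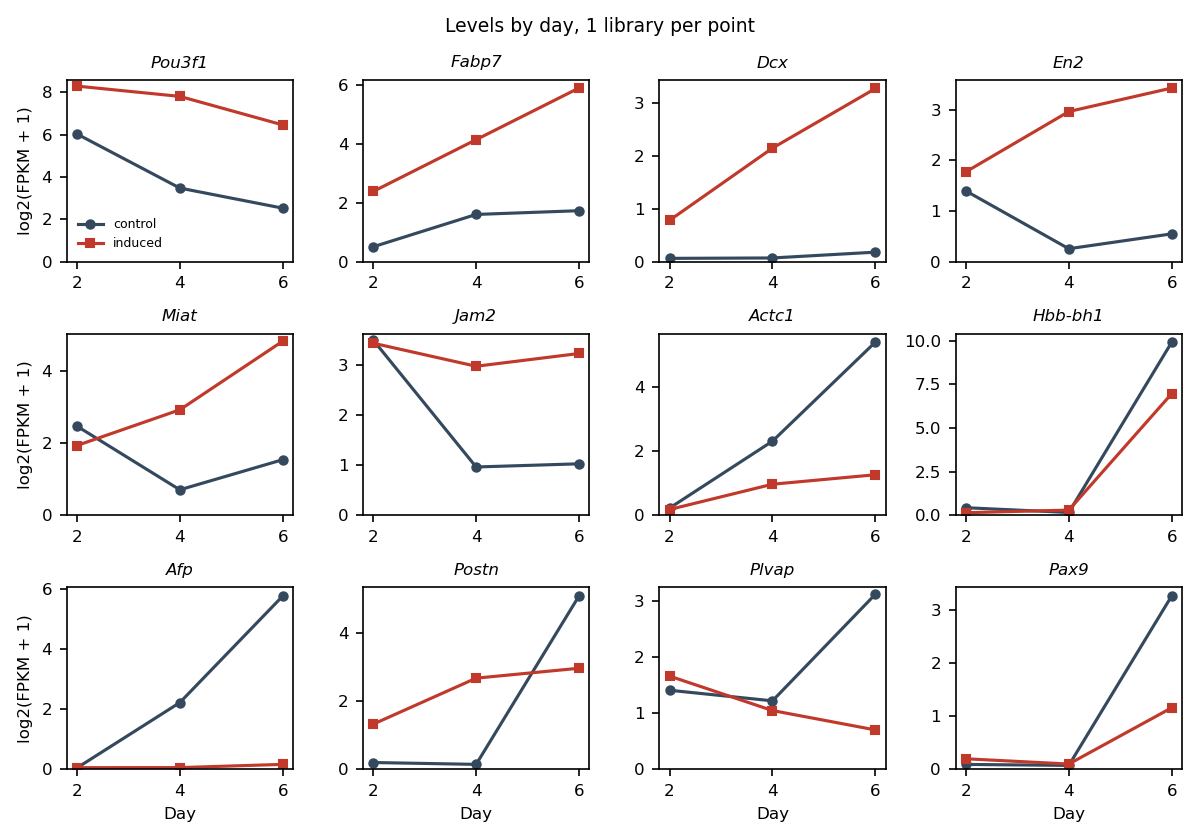
Lines join the values of log2(FPKM + 1) at days 2, 4 and 6 in the control (dark circles) and induced (red squares) libraries, 1 library per point, with a separate vertical scale per gene. Fabp7, Dcx and Miat separate progressively, Jam2 has low control values at days 4 and 6, and Actc1, Hbb-bh1, Postn, Plvap and Pax9 show their largest control values at day 6.

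Heart muscle transcripts supplied many of the largest lower differences. Of 32 sarcomere and contraction genes 20 entered, 11 were at least 2-fold lower, none higher, and the median was -1.67. Actc1, cardiac actin, had 0.171, 3.99 and 41.6 FPKM in control cells by day and 0.135, 0.963 and 1.41 FPKM in induced cells, a day 6 difference of -4.14. Tnnt2, cardiac troponin T, had 0.132 FPKM in the control at day 4 and 43.8 FPKM at day 6, against 0.101 and 2.09 FPKM in the induced arm, a difference of -3.86. Myl7, the atrial light chain, had 57.5 and 2.55 FPKM at day 6, and Myh7, a myosin heavy chain, 16.6 and 1.80 FPKM. The median difference of this list had been -0.03 at day 2 and -0.19 at day 4. The high values of these genes were in the control library of day 6.

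The factors of heart progenitors had 9 of 18 entered members lower, none higher and a median of -1.02. Nkx2-5 had 0.109, 0.126 and 4.14 FPKM in the control and 0.968, 0.737 and 0.343 FPKM in induced cells. Its difference was positive at day 2 and day 4 (0.83 and 0.63) and -1.93 at day 6. Smyd1 had 8.30 and 0.629 FPKM, Mef2c 5.82 and 0.670 FPKM, and Gata5 2.20 and 0.240 FPKM. Hand2 had 17.1 and 7.61 FPKM. Gata4 and Tbx3 did not reach 2-fold: Gata4 had 21.1 and 13.9 FPKM and Tbx3 8.14 and 13 FPKM.

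Blood and vessel transcripts were lower as well. Of 28 globin and erythroid genes 19 entered, with 9 lower, none higher and a median of -0.89. Hbb-bh1, an embryonic beta-like globin, had 0.121 FPKM in the control at day 4 and 962 FPKM at day 6, against 0.232 and 124 FPKM in induced cells. Both arms held more of it at day 6 than at day 4, and the day 6 difference was -2.94. Hbb-y had 159.7 and 3.91 FPKM and Hba-x 403 and 22.9 FPKM at day 6, each listed at 0 in both arms at day 4. Hba-a1 and Hba-a2 are near-identical copies, so their separate values are uncertain. Alas2, the erythroid enzyme of haem synthesis, had 10.2 and 2.32 FPKM and the factor Klf1 3.59 and 1.01 FPKM. The summed FPKM of the list was 1831 in the control and 424 in the induced library.

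The endothelium list, made of vessel receptors and junction proteins, had 27 of 30 members entered, 13 lower, none higher and a median of -0.94, after -0.11 at day 2 and -0.14 at day 4. Plvap had 7.71 and 0.624 FPKM, Sox18 6.47 and 0.760 FPKM, and Emcn 4.16 and 0.227 FPKM. Cdh5, VE-cadherin, had 0.124 FPKM in the control at day 4 and 6.55 at day 6, against 0.0859 and 1.51 FPKM in induced cells. Kdr, the VEGF receptor of early mesoderm and vessels, had 13.2 and 5.44 FPKM at day 6 after 6.97 and 0.834 FPKM at day 4, so its difference was -1.14 after -2.12. Flt1, another VEGF receptor, had 10.1 and 14.0 FPKM and stood on the other side. Cd34, of blood progenitors and vessels, had 9.17 and 1.11 FPKM.

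Visceral endoderm, the outer epithelium of the early embryo and of embryoid bodies, takes up and secretes carrier proteins. Of 29 secreted carriers 19 entered, 13 were lower and 1 higher, and the median was -1.66 after -1.45 at day 4. Afp, alpha-fetoprotein, had 0.0267, 3.64 and 53.3 FPKM in control cells by day and 0.0334, 0.0347 and 0.115 FPKM in induced cells, the largest difference of a protein-coding gene in the named set, -5.61. Apob, a lipoprotein component, had 17.6 and 0.267 FPKM, and Rbp4, the retinol carrier, 22.2 and 1.90 FPKM. Ttr, transthyretin, had 26.6 and 0.200 FPKM at day 4 and 48.0 and 4.25 FPKM at day 6, and the difference was -3.22 after -4.53. The higher member, Tdh, is a threonine enzyme known from pluripotent cells, with 12.6 and 28.2 FPKM. S100g, a calcium-binding protein outside this list, had 41.4 and 0.659 FPKM, a difference of -4.67.

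The endocytic receptors of the same epithelium had 9 of 22 entered members lower, none higher and a median of -0.66 after -1.23 at day 4. Cubn, Amn and Lrp2 together form the uptake complex. Amn had 8.01 and 0.459 FPKM, Cubn 11.2 and 1.27 FPKM and Lrp2 11.3 and 1.34 FPKM. The adaptor Dab2 had 38.1 and 5.82 FPKM. Cubn and Lrp2 had differences of -2.44 each already at day 2, when Afp and Ttr differed by 0.01 and -0.07. The endoderm transcription factors were closer: of 19 entered none passed 2-fold in either direction (2 were lower after quantile normalisation), and the median was -0.36 after -0.80 at day 4. Foxa2 had 19.98 and 12.1 FPKM, Sox17 15.6 and 16.6 FPKM, and Gata6 18.8 and 9.19 FPKM, a difference of -0.96 that was -1.02 after median ratio scaling.

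Epithelial keratins lay closer at day 6 than at day 4. Krt8 had 197 and 52.2 FPKM at day 4 and 300.1 and 199 FPKM at day 6, so its difference was -0.59 after -1.90. Krt18 had 279 and 183 FPKM and Krt19 41.0 and 18.8 FPKM. In the simple epithelium list 1 of 32 entered members was lower (2 after either other scaling), with a median of -0.38 after -0.89 at day 4. Basement membrane genes had 6 of 16 lower, none higher and a median of -0.69. Col4a1 had 70.1 and 29.2 FPKM, and Lama1, the laminin of early basement membranes, 23.8 and 8.71 FPKM. Trophoblast genes had none of 15 past 2-fold.

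Some mesenchymal and pharyngeal factors were high in the control library of day 6. The somite, muscle and skeletal mesoderm list had 14 of 24 members entered, with 5 lower, 3 higher and a median of -0.75. The higher ones were Pax3, given above, Uncx with 0.123 and 1.93 FPKM and Lbx1 with 0.0792 and 1.18 FPKM. Pax9, a factor of pharyngeal pouches and skeletal mesenchyme, had 0.0626, 0.0492 and 8.57 FPKM in the control and 0.144, 0.0680 and 1.22 FPKM in induced cells, a difference of -2.10 at day 6 after 0.03 at day 4. Foxc1 had 7.70 and 1.14 FPKM, Foxc2 4.08 and 0.447 FPKM and Pax1 2.56 and 0.101 FPKM. The neural crest and placode list was split by this, with 6 of 25 entered members higher, 4 lower and a median of -0.25. Head mesenchyme factors Prrx2, with 19.98 and 4.32 FPKM, and Alx1, with 5.33 and 0.743 FPKM, were lower. The border factors Tcfap2a (1.04 and 4.43 FPKM), Tcfap2b (0.0824 and 2.66 FPKM), Msx1 (18.7 and 49.4 FPKM) and Dlx5 (0.329 and 2.07 FPKM) were higher.

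Smooth muscle and matrix genes lay on the lower side. Smooth muscle and myofibroblast genes had 8 of 17 entered members lower, none higher and a median of -0.59. Acta2, smooth muscle actin, had 126 and 25.2 FPKM and Tagln 64.1 and 25.6 FPKM. Collagens had 7 of 25 lower and 2 higher, with Col3a1 at 28.6 and 5.46 FPKM on 1 side and Col8a1 at 0.0396 and 2.85 FPKM on the other. Integrins, laminins and matrix glycoproteins had 7 of 35 lower and 1 higher. That 1 was Ncan, the brain proteoglycan whose intronic site is printed above, with 0.525 and 2.92 FPKM. Igfbp5, an insulin-like growth factor binding protein, had 0.433 and 2.43 FPKM at day 4 and 114 and 14.5 FPKM at day 6. Markers of feeder fibroblasts, on which the stem cells were kept, overlap these lists. Of 14 such markers 11 entered, 5 were lower and none higher, and their summed FPKM was 136 in the control and 58.2 in the induced library, against 12.98 and 53.1 at day 4. Fap was listed at 0 in both day 6 libraries and Col1a2 had 9.72 and 11.2 FPKM. The part of feeder cells in the matrix differences was not tested.

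Signalling genes mostly stayed within 2-fold, with single members apart. In the Wnt pathway 2 of 51 entered members were higher and 5 lower, with a median of 0.03 that was -0.03 after either other scaling. Fzd10, a Frizzled receptor of the neural tube with a peak 0.10 kb before its start, had 6.89 and 37.9 FPKM, a difference of 2.30. The same peak lay 0.049 kb before the start of 5930412G12Rik. Frzb, a secreted antagonist with a peak 0.193 kb past its start, was lower with 35.1 and 11.9 FPKM. The vascular receptor Fzd4 had 8.81 and 2.44 FPKM. In the BMP and TGF-beta pathway 4 of 43 were higher and 2 lower. The antagonist Chrdl1 had 0.751 and 6.26 FPKM, the ligand Bmp7 15.0 and 5.01 FPKM, and the ligand Bmp4 17.9 and 23 FPKM. In the FGF pathway 2 of 32 were higher, Fgfbp3 with 1.61 and 8.19 FPKM and Fgf11 with 0.974 and 4.73 FPKM. In the Hedgehog pathway Shh was lower, its receptor and target Ptch1 had 39.0 and 19.5 FPKM, and the co-receptor Boc 2.36 and 6.88 FPKM.

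The day 6 sets were compared with those of day 4 and day 2, which come from other libraries. At day 4, 772 genes (6.09% of 12678) were at least 2-fold higher and 268 (2.11%) lower, and at day 2, 1223 (9.72% of 12586) and 230 (1.83%). Of the genes higher at day 6, 242 were higher at day 4, which is 56.0% of the day 6 set and 31.3% of the day 4 set. With day 2 the shared genes were 168, or 38.9% and 13.7%. Of the genes lower at day 6, 55 were lower at day 4, or 20.4% and 20.5%, and 13 were lower at day 2, or 4.83% and 5.65%. The day 6 higher genes had a median difference of 1.14 at day 4 and 0.73 at day 2, and the day 6 lower genes -0.15 and 0.05. Most of the genes lower at day 6 had therefore not been called lower at either earlier day. With the pseudocount of 1, a gene under 1 FPKM in the control cannot reach -1. The genes lower at day 6 had a median control level of 0.979 FPKM at day 4, so most could not have been called lower then. The small overlap of the lower sets thus does not date the difference.

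Transcripts of general cell functions mostly lay close in the day 6 libraries. All 34 ribosomal protein genes lay between -0.12 and 0.19, with a median of 0.11. They are abundant, with a summed FPKM of 41664.5 in the control. Their narrow range is therefore no measure of the scatter of genes near 1 FPKM. Among 14 reference genes none passed 2-fold. Actb, cytoplasmic actin, had 460.0 and 378 FPKM and Gapdh, a glycolytic enzyme, 295 and 242 FPKM, each a difference of -0.28. Of 36 cell cycle genes 1 passed 2-fold: Ccnd2, a G1 cyclin, had 31.6 and 67.5 FPKM, after 4.97 and 20.9 FPKM at day 4.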

How the data were processed

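Gene expression was measured by RNA-seq in 6 libraries and Oct6 binding by ChIP-seq at day 4. The submitters' processing notes name the build mm9, the aligner TopHat (1.4.1), Cufflinks (version 1.3.0) with Cuffdiff, and HOMER. The authors deposited FPKM values as 1 table with a column per library. The sources used here do not give strand or the treatment of multi-mapping reads, so near-identical, overlapping and antisense genes are uncertain. The peak list holds the authors' deposited positions with a score per peak, used only to rank peaks within that list. All value columns belonged to a sample. Groups came from the sample labels.

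Differences of log2(FPKM + 1), induced minus control, were computed per gene with at least 1 FPKM in either day 6 library. With 1 library per arm no test was made. An exact 0 can be a failed estimate and is described as listed at 0. FPKM are relative values, so a few very abundant transcripts can shift all others, and folds of weak genes are understated by the pseudocount. Relative depth was read from the steps of values below 0.3 FPKM and turned into fragments with annotated lengths, as an estimate.

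The members, the 58 gene lists and the comparisons were chosen with earlier results of these data known. Named genes were Pou3f1, the 20 largest differences per direction among genes of at least 5 FPKM in the higher library, up to 6 members per list, and a fixed set of markers. A few further list members and peaks were named after their values were seen. Some items covered by these criteria are left out of the text. Of the symbols that entered, 98.3% matched the GENCODE annotation of NCBIM37 (mm9), which also gave gene starts. Peaks on unplaced contigs (14 of 7979) were left out. Flank windows lay 500 bp from each peak. Shares carry 95% Wilson intervals for counting error.

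Alternatives were other pseudocounts, filters, scalings, distances and a score limit. The counting was tested on simulated data. Calculations ran in Python 3.11.15 with pandas 2.3.3, numpy 2.4.6 and scipy 1.17.1, and plots in matplotlib 3.10.9.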

Additional observations from a re-analysis of the deposited data

Results flagged for a closer look

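Among genes of at least 5 FPKM in a day 6 library, 4 differed at least 2-fold in opposite directions at day 4 and day 6. Small RNA, predicted and pseudogene symbols were left out. Without these limits 7 genes were higher at day 6 and lower at day 4, and 6 showed the opposite. The opposite directions were not tested, since each day has 1 library per arm. Igfbp5 was higher in induced cells at day 4, with a difference of 1.26, and lower at day 6, with -2.88. Postn, a matrix protein, had 0.101 and 5.36 FPKM in control and induced cells at day 4 and 33.0 and 6.79 FPKM at day 6, with differences of 2.53 and -2.13. Tgfbi, another matrix protein, had differences of 1.37 at day 4 and -1.13 at day 6. In these 3 genes the induced library was also higher at day 6 than at day 4, by 2.18 for Igfbp5, 0.29 for Postn and 1.31 for Tgfbi on the log2 scale, and the control library by 6.32, 4.95 and 3.81. Alox15, a lipoxygenase, showed the reverse, with -1.39 at day 4 and 1.35 at day 6. Its FPKM was 30.5 and 11.0 at day 4 and 1.95 and 6.52 at day 6 in control and induced cells.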

How the results depend on the processing

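A pseudocount of 0.1 gave 710 genes at least 2-fold higher and 434 lower, a minimum of 5 FPKM gave 200 and 149, and a 4-fold limit gave 69 and 56. By construction the smaller pseudocount admits weak genes and the other settings remove genes. Median ratio scaling gave 374 higher and 286 lower, a pseudocount of 0.5 gave 567 and 346, no filter 432 and 269, and leaving out small RNA, predicted and pseudogene symbols 367 and 221. Of the 343 named genes, 333 kept their side of the 2-fold limit under median ratio scaling and 319 under quantile normalisation. No named gene past the limit changed direction under both scalings or a pseudocount of 0.1. No list median of at least 0.25 in size changed sign under these or the other filters and pseudocount, and that of blood progenitors, -0.28, was 0 without a filter. Smaller medians of axon guidance, glial, Wnt pathway and MHC class I genes changed sign under both other scalings. List medians moved by more than 0.25 in 14 lists with the 5 FPKM minimum, 14 without a filter and 11 with a pseudocount of 0.1. The number was 5 with a pseudocount of 0.5, 3 after quantile normalisation and 1 after median ratio scaling. The share of genes with a peak was 10.2% for higher, 1.57% for lower and 11.8% for neither within 1 kb, and 48.2%, 25.1% and 39.5% within 50 kb. With the upper scores alone, within 10 kb, it was 12.1% for higher and 11.1% for neither. No paired analysis was possible because each arm has 1 library per day and no test was made. Depth limits genes near 1 FPKM, and the spread between cultures is unknown.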

Other observations

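Glycolysis and hypoxia genes had 1 of 33 entered members at least 2-fold lower and a median difference of -0.31 at day 6, after -0.70 at day 4. Slc2a1, the glucose transporter, had 569.5 and 241 FPKM in control and induced cells at day 6, and the lactate transporter Slc16a3 had 86.5 and 45.1 FPKM. Imprinted genes had 2 of 28 members lower, and both lie in 1 cluster. Igf2, a growth factor, had 1182 and 457 FPKM, and the non-coding H19 had 7.95 and 1.03 FPKM. Igf2 had been 33.4 and 9.26 FPKM at day 4, lower than at day 6 in both arms. Peg12, also imprinted, had a difference of 0.79 after 2.32 at day 4.

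Interferon-stimulated and MHC class I genes had lain lower in induced cells at day 4, with medians of -0.68 and -0.76, and at day 6 the medians were 0.26 and 0.02. Psmb8, an immunoproteasome subunit, had 25.9 and 4.99 FPKM at day 4 and 2.52 and 1.80 FPKM at day 6. Its 2 control values were further apart than its induced ones. Polycomb genes, with 30 members, and DNA methylation genes, with 14, had none past 2-fold at day 6. The methyltransferase Dnmt3b had 348 and 92.7 FPKM at day 2, 248 and 89.4 FPKM at day 4 and 88.9 and 56.8 FPKM at day 6, and its differences were -1.90, -1.46 and -0.64. Of 23 p53 target and apoptosis genes and 19 immediate early genes, none passed 2-fold at day 6. Col1a2, a fibrillar collagen, had differences of 4.88 at day 2, 3.97 at day 4 and 0.19 at day 6, with 80.2, 30.4 and 11.2 FPKM in induced cells.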
